A study of Mus musculus with 12 samples.

Results

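Ion channel genes were followed in bone marrow-derived macrophages (BMDMs) that lack the transcription factor IRX3 and were given it back in 3 forms. The genes were taken by symbol from the count table: those beginning Kcn, Cacn, Clcn, Clic, Scn with a digit, Trpc, Trpm, Trpv, Orai, Lrrc8 or Piezo, without pseudogenes. Of 187 such genes, 53 had at least 10 normalized counts in at least 3 of the 12 libraries, among 13369 genes that passed that filter and 55401 in the table. The genes were thus chosen by symbol and selected on their level (normalized counts), and neither rule used a difference between groups. The ion channel genes as a set were, however, chosen with earlier results of these data known. Their choice therefore cannot be taken as blind to group differences, and neither can their shares of calls given below. Normalized counts are gene counts divided by 1 size factor per library, as deposited. The macrophages came from Irx3-/- C57BL/6J mice, were differentiated for 7 days with 20 nM M-CSF, the macrophage growth factor, and were treated with LPS, a bacterial cell wall component, at 100 ng/ml for 4 h. All 4 groups share the deletion and the LPS treatment, so no unstimulated cells and no macrophages with their own Irx3 are among them. An adeno-associated virus (AAV) delivered IRX3_S389A, IRX3_S361A (both carrying alanine in place of a serine), IRX3_WT or, as the control, GFP, with 3 total RNA libraries per group. The labels used here do not give the promoter that drives the constructs, the sex or age of the mice, or whether the 3 libraries of a group come from separate animals or cultures, so the p-values measure only the spread between libraries.

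Ion channels are membrane proteins that let ions pass down their electrochemical gradient. In macrophages, potassium channels set the membrane potential and carry the potassium loss that precedes inflammasome assembly. ORAI and TRP channels admit calcium, and PIEZO1 opens under mechanical force. Volume-regulated channels of LRRC8 proteins release chloride and small organic ions from swollen cells, and CLC exchangers of endosomes and lysosomes carry chloride into these compartments. IRX3 is a homeodomain protein of the Iroquois family that binds DNA.

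The groups matched their labels at Irx3 itself. Irx3 had 194, 203 and 165 normalized counts in the IRX3_S389A libraries, 324, 364 and 358 in the IRX3_S361A libraries and 165, 170.3 and 196 in the IRX3_WT libraries, and it was at 0 in all 3 GFP libraries. IRX3_S361A libraries thus held more Irx3 than IRX3_WT libraries (log2 difference 0.97, SE 0.19, limma adjusted p = 0.000197), and for that construct the substitution and the higher level cannot be told apart. Deposited totals ran from 18743369 to 19796325 in the 9 IRX3 libraries and from 17325311 to 17469765 in the GFP libraries. Scaling every library to an equal total therefore moves the median of all genes by -0.18 on the log2 scale in IRX3_WT against GFP, by -0.17 in IRX3_S389A against GFP and by -0.11 in IRX3_S361A against GFP, and the ion channel genes that were no longer called under it are named with the counts of calls. Macrophage markers were high in every library, with a summed level of 393368 to 406993 in IRX3_S389A, 416752 to 429929 in IRX3_S361A, 389296 to 393725 in IRX3_WT and 359792 to 370143 in GFP libraries. Lyz2 alone had 208870 to 254510 of these. The markers were not unchanged: 7 of 8 were called by the F test (87.5%; 44.2% of all genes). Against GFP, 3 were higher and 1 lower in IRX3_WT (21.0% and 18.6% of all genes). In IRX3_S361A 5 were higher and 0 lower (14.9% and 10.9%), and in IRX3_S389A 6 higher and 1 lower (18.8% and 16.2%). Some markers of other cell types were at 0 in every library, among them Ly6g, Elane, Mpo, Cldn5, Snap25, Rbfox3 and Actn2. Others from the same lists were present in every library. They included Camp at 10.1 to 34.3, Cdh5 at 17.5 to 39.6, Ttn at 16.7 to 29.8 and Syp at 29.6 to 72.1 normalized counts. The summed T and NK cell markers reached at most 2.03 normalized counts. The summed neutrophil markers reached at most 35.3, B cell markers 18.6, erythroid and megakaryocyte markers 8.05 and mast cell and basophil markers 6.20. Summed dendritic cell markers ran from 144 to 186 in IRX3_S389A, 137 to 160 in IRX3_S361A, 161 to 168 in IRX3_WT and 117 to 151 in GFP libraries. Among them Xcr1 alone had 110 to 166 normalized counts over the 12 libraries. Ccr7 was called in IRX3_WT against GFP (log2 difference 1.35, SE 0.50, limma adjusted p = 0.0288). Summed neuron and muscle markers ran from 56.8 to 64.02 in IRX3_S389A, 62.6 to 74.9 in IRX3_S361A, 58.03 to 66.5 in IRX3_WT and 61.3 to 93.5 in GFP libraries. Among them Syp was lower than in GFP in IRX3_WT (-0.72, adjusted p = 0.016) and in IRX3_S389A (-0.69, adjusted p = 0.0236, log2 differences, limma). The part of these markers in the results was not tested. Among stromal markers, Pdgfrb, a growth factor receptor gene of mesenchymal cells, moved with the constructs: it averaged 167 ± 15.4 in IRX3_S389A, 123 ± 16.1 in IRX3_S361A and 225 ± 5.65 in IRX3_WT macrophages, against 84.6 ± 13.2 in GFP macrophages (SD, n = 3 each), while the other 5 stromal markers had at most 19.9 in any library. The summed stromal level ran from 197 to 215 in IRX3_S389A, 128 to 197 in IRX3_S361A, 238 to 255 in IRX3_WT and 86.6 to 120 in GFP libraries, and its part in the values of weakly expressed channel genes was not tested. Among endothelial markers Kdr averaged 1467 ± 59.2 in IRX3_S389A, 1093 ± 85.7 in IRX3_S361A and 1091 ± 128 in IRX3_WT macrophages, against 1050.0 ± 58.6 in GFP macrophages, and its part in the results was not tested. In bulk RNA, fewer cells that express a gene and less RNA per cell cannot be told apart.

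The 53 genes were spread over a wide range of levels. Dividing by annotated exon length, the 2 most abundant were Clic4 at 4429 and Clic1 at 3649.7 normalized counts per kilobase, averaged over the 12 libraries. Piezo1 followed at 1099, the lysosomal exchanger gene Clcn7 at 822, Orai2 at 803 and Trpv2 at 564 per kilobase. The most abundant potassium channel gene was Kcnn4 at 503 per kilobase, and the most abundant voltage-gated calcium channel gene was Cacna1a at 102. Near the other end stood Kcnq1ot1 at 0.712 per kilobase. In normalized counts not divided by length, 15 of the 53 averaged over 1000 and 15 under 30. Together the 53 genes held 0.424% to 0.481% of each library's total.

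**Figure D1:**
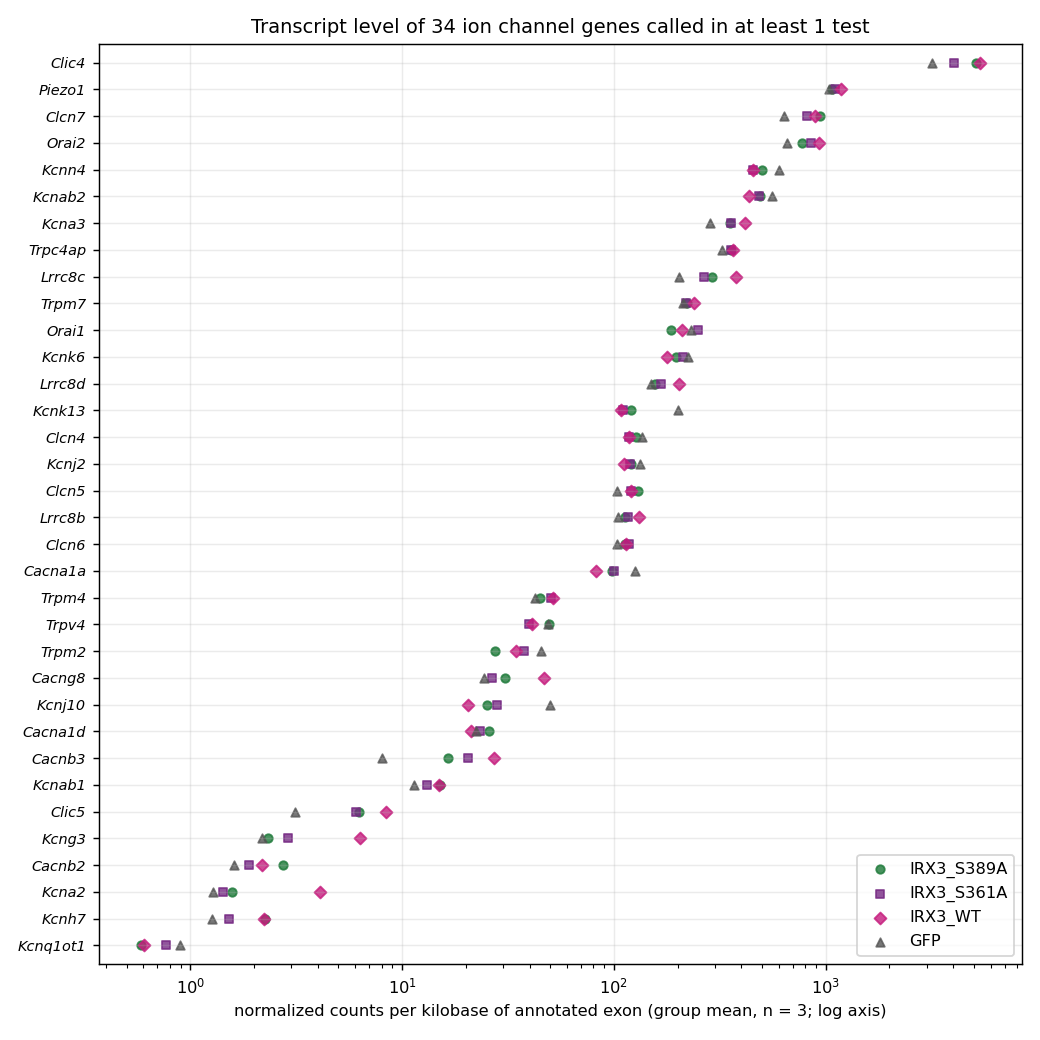
Group means (n = 3) of normalized counts per kilobase of annotated exon for the 34 ion channel genes called by the F test or in any comparison, on a log axis, sorted by the mean over all libraries. Clic4 lies highest at 4429, Kcnq1ot1 lowest at 0.712, and for most genes the 4 symbols lie close together compared with the distance between genes.

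The value filter decided which genes were followed. Just inside it by their third-highest library were Kcnip4 at 14.2 and Kcnk7 at 10.3 normalized counts, and just outside it Trpc4 at 8.10, Cacna1g at 8.05 and Clcn1 at 7.88. Of the 134 genes below it, 71 were at 0 in every library. For 3 genes, Kcng3 and Kcnk7 among them, the filter was met only with the help of 1 group, so a difference at Kcng3 follows in part from how it was chosen. The symbol rule also brought in genes that encode no channel pore: Kcnq1ot1, an antisense noncoding RNA in the imprinted Kcnq1 locus, Trpc4ap, a ubiquitin ligase adaptor named for binding a TRP channel, and accessory subunits such as Kcnab2 and Cacnb3. The read counting was not stated to use strand, so values of genes that overlap another gene's exons are uncertain. That held for Lrrc8a, with 68.3% of its exon bases shared, and Piezo1, with 24.6%.

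IRX3_WT macrophages differed from GFP macrophages at 54.7% of the 53 genes. A gene is called here when its limma adjusted p (Benjamini-Hochberg over 13369 genes) is under 0.05. In IRX3_WT against GFP, 29 genes were called, where 39.6% of all genes tested were called. Of these, 19 were higher in IRX3_WT (35.8% of the 53, with 21.0% of all genes called higher) and 10 were lower (18.9%, with 18.6% of all genes). The 19 include Kcng3, which would not have passed the value filter without its IRX3_WT libraries. The median log2 difference of the 53 was 0.10, beside -0.01 over all genes tested, and the median size of the difference was 0.39, beside 0.21. With equal library totals the split was 11 higher and 18 lower, and 8 of the 19 higher genes were no longer called, while the 10 lower ones still were. These 8 calls, of Kcnh7, Kcnab1, Kcng3, Trpm4, Trpm7, Trpc4ap, Piezo1 and Clcn5, ended in that their adjusted p reached 0.05 or more.

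The substituted proteins differed from IRX3_WT at fewer of the genes than IRX3_WT did from GFP. In IRX3_S361A against IRX3_WT, 11 were called (20.8%; 15.5% of all genes), 4 higher (6.43% of all genes) and 7 lower (9.07%). In IRX3_S389A against IRX3_WT, 13 were called (24.5%; 15.3% of all genes), 3 higher (8.21% of all genes) and 10 lower (7.08%). Limma without the trend and robust settings called 6 and 7 in these comparisons, and without IRX3_WT replicate 1 the second gave 8. With equal library totals the calls of Orai2 and Clcn7 ended in the first and those of Kcna3 and Cacng8 in the second. Both share the IRX3_WT libraries, so their values are given side by side below and not correlated. In IRX3_S389A against IRX3_S361A, 5 were called (9.43%; 10.2% of all genes), 2 higher (7.00% of all genes) and 3 lower (3.16%), a share near that of all genes. That count was 8 with equal library totals, 3 without IRX3_S389A replicate 3, without IRX3_S361A replicate 2 or without IRX3_S361A replicate 3, and 3 without the trend and robust settings. An edgeR fit on 9 of the 12 libraries kept 2 IRX3_S389A libraries and 1 IRX3_S361A library. It therefore assumes that the lone IRX3_S361A library varies like the other groups. That fit gave 6 calls for IRX3_S361A against IRX3_WT and 1 for IRX3_S389A against IRX3_S361A.

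Against GFP, IRX3_S361A gave 19 calls (35.8%; 25.9% of all genes), 12 higher (14.9% of all genes) and 7 lower (10.9%). IRX3_S389A gave 21 calls (39.6%; 35.0% of all genes), 12 higher (18.8% of all genes) and 9 lower (16.2%). With equal library totals these splits were 7 higher and 12 lower for IRX3_S361A and 7 higher and 20 lower for IRX3_S389A. The calls of Trpc4ap, Clcn5, Clcn6, Lrrc8d and Trpm4 then ended in IRX3_S361A, and those of Trpc4ap, Cacnb2, Kcnab1, Kcna3 and Orai2 in IRX3_S389A. The 3 comparisons against GFP share the GFP libraries. A moderated F test over the 4 groups called 28 of the 53 (52.8%; 44.2% of all genes). Another 6 were called only in a comparison of 2 groups, and 19 were called nowhere. In 11 of the 28 the highest group mean was at least 1.5 times the lowest: Clic4, Clic5, Lrrc8c, Kcna2, Kcnh7, Kcnj10, Kcnk13, Cacna1a, Cacnb3, Cacng8 and Trpm2. In the other 17 it was less.

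Some calls rested on the settings of the fit. Without limma's trend and robust settings the calls of Clcn4, Kcnq1ot1, Kcnj2 and Kcng3 ended in IRX3_WT against GFP. Those of Kcnab2, Orai2, Cacng8, Cacna1a and Clcn7 ended in IRX3_S361A against IRX3_WT, and those of Kcna3, Kcnab2, Cacng8, Cacna1a, Piezo1 and Cacnb3 in IRX3_S389A against IRX3_WT. The calls of Orai1 and Orai2 ended in IRX3_S389A against IRX3_S361A, that of Clcn4 in IRX3_S361A against GFP, and those of Cacnb2, Orai1 and Kcnq1ot1 in IRX3_S389A against GFP. With no filter on low values 6 calls ended: Kcnq1ot1 in IRX3_WT against GFP, Kcna3 and Cacna1d in IRX3_S389A against IRX3_WT, Clcn6 in IRX3_S361A against GFP, and Cacnb2 and Kcnk6 in IRX3_S389A against GFP.

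**Figure D2:**
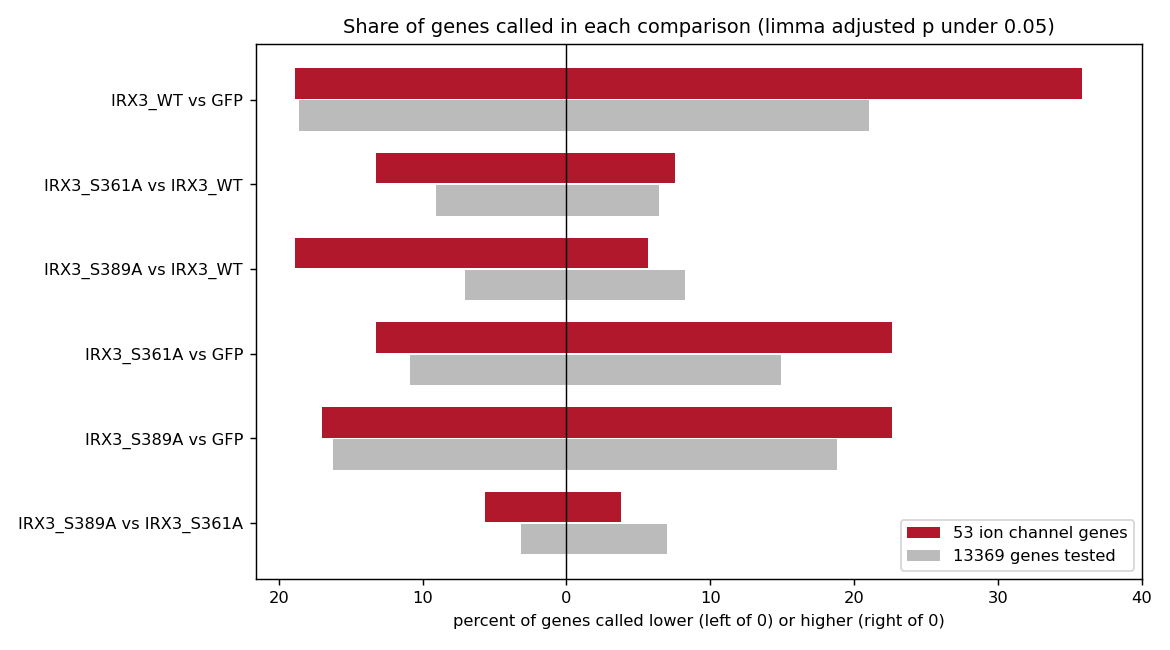
Percent of the 53 ion channel genes (red) and of the 13369 genes tested (grey) called higher (right of 0) or lower (left of 0) in each of 6 comparisons, limma adjusted p under 0.05. In IRX3_WT vs GFP the red bar reaches 35.8% on the higher side, against 21.0% for all genes, and in IRX3_S389A vs IRX3_WT 18.9% on the lower side, against 7.08%.

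Lrrc8b, Lrrc8c and Lrrc8d, genes of the volume-regulated anion channel, were higher with IRX3_WT than with GFP, and Lrrc8c and Lrrc8d were lower with both substituted proteins than with IRX3_WT. LRRC8 proteins assemble around a pore, in which LRRC8A is the obligatory subunit and LRRC8B to LRRC8E set which solutes pass. Lrrc8b, Lrrc8c and Lrrc8d lie in a row on the plus strand of chromosome 5, 29.3 kb and 86.95 kb apart. Lrrc8c had 2139, 2271 and 2259 normalized counts in the IRX3_S389A libraries and 1981, 2072 and 2072 in the IRX3_S361A libraries. It had 2869, 2886 and 2874 in the IRX3_WT libraries, against 1628, 1565 and 1489.8 in the GFP libraries. The 3 IRX3_WT libraries lay above all others, the GFP libraries below all others, and the substituted constructs in between. Lrrc8c (chr5:105519388-105613018, plus strand) was higher in IRX3_WT than in GFP (log2 difference 0.88, SE 0.05, limma adjusted p = 1.04e-18). It was lower than in IRX3_WT in IRX3_S361A (log2 difference -0.49, SE 0.05, limma adjusted p = 1.54e-10) and in IRX3_S389A (log2 difference -0.37, SE 0.05, limma adjusted p = 1.15e-07). Both substituted constructs still exceeded GFP, IRX3_S389A by 0.51, adjusted p = 6.79e-12 and IRX3_S361A by 0.39, adjusted p = 1.03e-08 (log2 differences, limma).

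Lrrc8d averaged 1975 ± 38.5 normalized counts in IRX3_S389A, 2099 ± 79.7 in IRX3_S361A and 2561 ± 30.03 in IRX3_WT macrophages, against 1891 ± 48.3 in GFP macrophages (SD, n = 3 each). It was higher in IRX3_WT than in GFP (log2 difference 0.44, SE 0.04, limma adjusted p = 1.6e-10) and lower than in IRX3_WT in IRX3_S361A (-0.29, adjusted p = 7.04e-06) and IRX3_S389A (-0.37, adjusted p = 6.8e-08, log2 differences, limma). Lrrc8b averaged 759 ± 17.03 in IRX3_S389A, 780.5 ± 23.2 in IRX3_S361A and 879 ± 45.3 in IRX3_WT macrophages, against 704 ± 38.1 in GFP macrophages, with a difference of 0.32, adjusted p = 5.46e-05 in IRX3_WT against GFP. Against IRX3_WT, Lrrc8b was lower in IRX3_S389A (-0.21, adjusted p = 0.0155; 0.0744 without IRX3_S389A replicate 1 and 0.103 without IRX3_WT replicate 1, limma). In IRX3_S361A against IRX3_WT its difference was -0.17, adjusted p = 0.0545. Lrrc8a, at 37.9 ± 10.7 in IRX3_S389A, 45.1 ± 7.61 in IRX3_S361A and 51.8 ± 4.43 in IRX3_WT macrophages, against 49.2 ± 11.4 in GFP macrophages, was called in no comparison, with an interval for IRX3_WT against GFP of -0.38 to 0.57 (95%, log2), and most of its exon bases are shared with another gene. Lrrc8e had at most 1.04 normalized counts in any library and was not tested.

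Upstream sequence is shown for these neighbours, because the 3 genes moved the same way, and for Clic4, the most abundant channel gene that changed. The bases are those of RefSeq (GRCm38.p6) within 250 bases before the start that lie outside the annotated gene, 5′ to 3′ on the gene's strand, and capitals mark motif matches. They are chr5:105415525-105415774 (plus strand) with an AP-1 match, chr5:105519221-105519387 (plus) with overlapping PU.1 and NF-kappaB matches, chr5:105699719-105699968 (plus) with none, and chr4:135272815-135273010 (minus) with a pair of overlapping NF-kappaB matches.
Lrrc8b: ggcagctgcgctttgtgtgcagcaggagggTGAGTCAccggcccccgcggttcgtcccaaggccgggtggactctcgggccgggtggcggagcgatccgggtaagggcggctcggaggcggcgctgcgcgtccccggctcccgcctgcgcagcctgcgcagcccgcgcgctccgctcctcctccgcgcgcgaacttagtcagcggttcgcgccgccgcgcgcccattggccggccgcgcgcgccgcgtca
Lrrc8c: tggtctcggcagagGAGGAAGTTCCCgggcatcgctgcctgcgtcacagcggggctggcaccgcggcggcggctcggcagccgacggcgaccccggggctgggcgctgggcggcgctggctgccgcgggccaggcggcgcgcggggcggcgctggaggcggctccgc
Lrrc8d: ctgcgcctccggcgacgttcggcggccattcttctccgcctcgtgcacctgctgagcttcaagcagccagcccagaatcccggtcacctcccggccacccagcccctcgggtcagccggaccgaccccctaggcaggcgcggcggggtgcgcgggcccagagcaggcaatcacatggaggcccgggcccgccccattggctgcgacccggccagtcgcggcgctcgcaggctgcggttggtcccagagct
Clic4: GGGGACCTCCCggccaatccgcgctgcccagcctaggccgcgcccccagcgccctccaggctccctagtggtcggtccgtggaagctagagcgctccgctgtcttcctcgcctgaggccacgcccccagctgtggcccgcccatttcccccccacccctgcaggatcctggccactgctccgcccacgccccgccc

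The same search covered the 250 bases before the start, on both strands, for the 46 of 53 genes with a RefSeq promoter entry and for all 32851 promoters. These 46 genes had 62 promoter entries. A gene is counted below when any of its entries held a match, while the percentages are shares of single promoters. The counts and percentages are therefore in different units and not directly comparable. The motif ACANNTGT, known from the Drosophila Iroquois protein Mirror, occurred at Kcnip4 and Orai3, and in 6.31% of all promoters. The AP-1 motif TGANTCA occurred at 3 genes (6.75% of all promoters), the NF-kappaB consensus at 8 (7.25%) and the PU.1 motif GAGGAAGT at 2 (2.44%). The CREB motif TGACGTCA occurred at 2 (1.55%) and the interferon response motif at 1 (2.98%). A match here is a run of letters, not a bound site. No binding was measured in these samples.

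CLIC proteins are soluble proteins with a glutathione transferase fold that can insert into membranes. Clic4 had 33675, 33749 and 33967 normalized counts in the IRX3_S389A libraries and 27532, 26621 and 25384 in the IRX3_S361A libraries. It had 36131, 36141 and 33764 in the IRX3_WT libraries, against 20655, 20481 and 21149 in the GFP libraries. The IRX3_S389A and IRX3_WT libraries overlapped, the IRX3_S361A libraries lay below both and the GFP libraries below all. Clic4 (chr4:135213969-135272814, minus strand) was higher in IRX3_WT than in GFP (log2 difference 0.77, SE 0.03, limma adjusted p = 1.73e-21). It was lower in IRX3_S361A than in IRX3_WT (log2 difference -0.41, SE 0.03, limma adjusted p = 1.4e-12), while in IRX3_S389A against IRX3_WT the difference was -0.06, adjusted p = 0.189 (95% interval -0.13 to 0.00). The substituted constructs themselves differed, IRX3_S389A being higher than IRX3_S361A (log2 difference 0.35, SE 0.03, limma adjusted p = 4.9e-10).

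Clic5, a CLIC protein of actin-rich membrane protrusions, stood at 5.96 normalized counts per kilobase, far below Clic4, and was also higher with IRX3_WT than with GFP. Clic5 had 45.5, 58.4 and 61.99 normalized counts in the IRX3_S389A libraries and 57.7, 48.7 and 53.3 in the IRX3_S361A libraries. It had 79.7, 70.6 and 70.5 in the IRX3_WT libraries, against 22.3, 23.9 and 35.6 in the GFP libraries. All 9 IRX3 libraries exceeded the 3 GFP libraries, and the IRX3_WT libraries exceeded the other 9. Clic5 (chr17:44188584-44280172, plus strand) was higher than in GFP in IRX3_WT (log2 difference 1.43, SE 0.21, limma adjusted p = 7.77e-07), in IRX3_S361A (0.97, adjusted p = 0.000549) and in IRX3_S389A (1.01, adjusted p = 0.00022, log2 differences, limma). Its differences from IRX3_WT were -0.46, adjusted p = 0.153 in IRX3_S361A and -0.42, adjusted p = 0.205 in IRX3_S389A. Clic1, the second most abundant channel gene per kilobase, averaged 6359.5 ± 149.7 in IRX3_S389A, 6661 ± 160.1 in IRX3_S361A and 6557 ± 79.5 in IRX3_WT macrophages, against 6686 ± 122 in GFP macrophages and was called in no comparison, with an interval of -0.10 to 0.04 for IRX3_WT against GFP.

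Among the CLC genes called in any test, Clcn7, whose product exchanges chloride for protons across the lysosomal membrane, had the group means farthest apart as a ratio (1.49). Clcn7 averaged 4984 ± 159.8 normalized counts in IRX3_S389A, 4337 ± 262 in IRX3_S361A and 4734 ± 52.6 in IRX3_WT macrophages, against 3349 ± 46.9 in GFP macrophages. It was higher in IRX3_WT than in GFP (log2 difference 0.50, SE 0.04, limma adjusted p = 7.68e-13) and higher in IRX3_S389A than in IRX3_S361A (log2 difference 0.20, SE 0.04, limma adjusted p = 0.000668). The lower level in IRX3_S361A than in IRX3_WT (-0.13, adjusted p = 0.0278) held in 8 of 12 fits that left out a library, with an adjusted p of 0.245 without IRX3_S361A replicate 3, and ended with equal library totals. Clcn5, an endosomal exchanger, was higher than in GFP in IRX3_S389A (0.34, adjusted p = 1.08e-06), in IRX3_S361A (0.22, adjusted p = 0.00102) and in IRX3_WT (0.22, adjusted p = 0.000528). With equal library totals the IRX3_WT and IRX3_S361A values of Clcn5 were 0.05 and 0.11 and were not called. Clcn4 was lower than in GFP in IRX3_WT (-0.20, adjusted p = 0.0112; 0.131 without IRX3_WT replicate 2) and in IRX3_S361A (-0.20, adjusted p = 0.0185; up to 0.144, without IRX3_S361A replicate 1). Clcn6 was called in IRX3_S361A against GFP only (0.19, adjusted p = 0.0319; held in 7 of 12 fits without 1 library, up to 0.195 without IRX3_S361A replicate 1), and Clcn2 and Clcn3 in no comparison. Clcn2, a plasma membrane chloride channel, had means farther apart than Clcn7, at 11.9 ± 3.43 in IRX3_S389A, 14.1 ± 3.14 in IRX3_S361A and 12.7 ± 2.57 in IRX3_WT macrophages, against 22.3 ± 9.29 in GFP macrophages, but a difference of -0.71, adjusted p = 0.142 in IRX3_WT against GFP.

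Genes with a Kcn symbol, mostly potassium channel genes, moved in both directions. Of the 20 that passed the filter, 5 were higher (21.0% of all genes) and 7 lower (18.6%) in IRX3_WT than in GFP. The 7 include the noncoding Kcnq1ot1 and the beta subunit gene Kcnab2, and of the 5, the calls of Kcnh7, Kcnab1 and Kcng3 ended with equal library totals. Kcng3 also passed the value filter only with its IRX3_WT libraries. In IRX3_S361A against IRX3_WT 3 were higher (6.43% of all genes) and 1 lower (9.07%), and in IRX3_S389A against IRX3_WT 1 was higher (8.21%) and 2 lower (7.08%). Kcnj10 encodes the inward rectifier Kir4.1, best known from glia. Kcnj10 had 130.2, 151 and 128 normalized counts in the IRX3_S389A libraries and 148, 159 and 147 in the IRX3_S361A libraries. It had 109, 115 and 106 in the IRX3_WT libraries, against 243, 279 and 289 in the GFP libraries. The GFP libraries lay above all others and the IRX3_WT libraries below all others. Kcnj10 (chr1:172341210-172374085, plus strand) was lower in IRX3_WT than in GFP (log2 difference -1.29, SE 0.12, limma adjusted p = 2.08e-11), and higher in IRX3_S361A than in IRX3_WT (log2 difference 0.45, SE 0.12, limma adjusted p = 0.00671; not called by the edgeR fit with 1 IRX3_S361A library). In IRX3_S389A against IRX3_WT the difference was 0.30, adjusted p = 0.0852, with all 3 IRX3_S389A libraries above the IRX3_WT ones. Kcnj9, its neighbour 11.9 kb away on the other strand, averaged 10.8 ± 3.21 in IRX3_WT and 12.5 ± 5.34 in GFP macrophages and was called in no comparison.

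Tandem-pore potassium channels carry the background potassium current. Kcnk13 had 352, 369 and 408 normalized counts in the IRX3_S389A libraries and 338, 344 and 349 in the IRX3_S361A libraries. It had 278, 369 and 358 in the IRX3_WT libraries, against 563, 606 and 703 in the GFP libraries. The GFP libraries lay above the other 9. Kcnk13 (chr12:99964499-100062682, plus strand), which encodes THIK-1, was lower than in GFP in IRX3_WT (log2 difference -0.90, SE 0.09, limma adjusted p = 6.16e-10), in IRX3_S361A (-0.85, adjusted p = 5.03e-09) and in IRX3_S389A (-0.72, adjusted p = 8.43e-08, log2 differences, limma). Its differences from IRX3_WT were 0.05, adjusted p = 0.805 in IRX3_S361A (95% interval -0.14 to 0.24) and 0.18, adjusted p = 0.231 in IRX3_S389A (-0.02 to 0.37). Kcnk6 encodes TWIK-2, a potassium efflux channel upstream of the NLRP3 inflammasome in mouse macrophages. Kcnk6 averaged 819.7 ± 36.5 in IRX3_S389A, 876 ± 5.22 in IRX3_S361A and 739 ± 45.6 in IRX3_WT macrophages, against 927 ± 46.5 in GFP macrophages. It was lower in IRX3_WT than in GFP (-0.33, adjusted p = 3.46e-05) and higher in IRX3_S361A than in IRX3_WT (0.25, adjusted p = 0.00378).

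Kcna2 and Kcna3, neighbours on chromosome 3 that encode the voltage-gated channels Kv1.2 and Kv1.3, were both higher with IRX3_WT. Kcna2 had 24.8, 18.1 and 13.2 normalized counts in the IRX3_S389A libraries and 14.2, 23.9 and 13.1 in the IRX3_S361A libraries. It had 54.1, 57.1 and 35.3 in the IRX3_WT libraries, against 18.6, 16.6 and 10.7 in the GFP libraries. The 3 IRX3_WT libraries lay above all others, and the libraries of the other 3 constructs overlapped. Kcna2 (chr3:107101146-107115005, plus strand) was higher in IRX3_WT than in GFP (log2 difference 1.62, SE 0.33, limma adjusted p = 0.000104). It was lower than in IRX3_WT in IRX3_S361A (log2 difference -1.48, SE 0.33, limma adjusted p = 0.00107) and in IRX3_S389A (log2 difference -1.35, SE 0.33, limma adjusted p = 0.00322), and these 3 calls held in every fit that left out a library. Against GFP its interval ran from -0.53 to 0.80 in IRX3_S361A and from -0.40 to 0.93 in IRX3_S389A (95%, log2). Kcna2 had at most 57.1 normalized counts in any library, a depth at which the pseudocount of 1 makes log2 differences smaller than the ratio of the counts.

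Kcna3, the most abundant voltage-gated potassium channel gene here at 353 normalized counts per kilobase, averaged 676 ± 79.99 normalized counts in IRX3_S389A, 683 ± 60.8 in IRX3_S361A and 787 ± 32.98 in IRX3_WT macrophages, against 543 ± 38.4 in GFP macrophages. It was higher in IRX3_WT than in GFP (log2 difference 0.54, SE 0.08, limma adjusted p = 4.71e-07). Its differences from IRX3_WT were -0.21, adjusted p = 0.0623 in IRX3_S361A and -0.23, adjusted p = 0.0413 in IRX3_S389A, where the call held in 6 of 12 fits without 1 library (adjusted p up to 0.241, without IRX3_S389A replicate 2). Kcnh7 encodes the ERG3 channel. Kcnh7 had 29.96, 37.2 and 35.6 normalized counts in the IRX3_S389A libraries and 20.2, 20.9 and 28.1 in the IRX3_S361A libraries. It had 41.3, 31.2 and 29.6 in the IRX3_WT libraries, against 20.4, 23.02 and 14.2 in the GFP libraries. The IRX3_S389A and IRX3_WT libraries lay above the GFP libraries, and the IRX3_S361A libraries overlapped the GFP libraries. Kcnh7 (chr2:62693414-63184287, minus strand) was higher than in GFP in IRX3_WT (log2 difference 0.80, SE 0.28, limma adjusted p = 0.0198) and in IRX3_S389A (log2 difference 0.82, SE 0.28, limma adjusted p = 0.0191). The IRX3_WT call ended without IRX3_WT replicate 1 (0.105), without GFP replicate 3 (0.117) and with equal library totals. The IRX3_S389A call ended without IRX3_S389A replicate 2 (0.0688), IRX3_S389A replicate 3 (0.0545) or GFP replicate 3 (0.115). Kcng3, a silent subunit that modifies Kv2 channels, had 30.5, 9.35 and 23.9 in the IRX3_WT libraries, against 7.42, 7.37 and 7.12 in the GFP libraries (1.28, limma adjusted p = 0.0343). That call held in 7 of 12 fits without 1 library (adjusted p up to 0.195, without IRX3_WT replicate 1). Without its IRX3_WT libraries Kcng3 would not have passed the value filter, so its difference follows in part from how it was chosen.

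Kcnn4 encodes the calcium-activated channel KCa3.1. Kcnn4 averaged 2571 ± 132 normalized counts in IRX3_S389A, 2318 ± 151 in IRX3_S361A and 2329.6 ± 175 in IRX3_WT macrophages, against 3070.0 ± 76.7 in GFP macrophages. It was lower than in GFP in IRX3_WT (log2 difference -0.40, SE 0.05, limma adjusted p = 5.88e-08), in IRX3_S361A (-0.41, adjusted p = 8.87e-08) and in IRX3_S389A (-0.26, adjusted p = 0.000127, log2 differences, limma). Kcnab2, a beta subunit with an aldo-keto reductase fold that binds Kv1 channels, averaged 2737 ± 86.4 in IRX3_S389A, 2691 ± 132 in IRX3_S361A and 2411 ± 173 in IRX3_WT macrophages, against 3127 ± 92.9 in GFP macrophages. It was lower in IRX3_WT than in GFP (log2 difference -0.38, SE 0.05, limma adjusted p = 2.66e-08) and higher than in IRX3_WT in IRX3_S361A (0.16, adjusted p = 0.017) and IRX3_S389A (0.18, adjusted p = 0.00591). Both of the last calls ended without IRX3_WT replicate 1 (0.16 and 0.0683). The IRX3_S361A call also ended without IRX3_S361A replicate 1 (0.135) or IRX3_WT replicate 3 (0.0553), and the IRX3_S389A call without IRX3_S389A replicate 1 (0.0509). Kcnab1, another beta subunit, was higher in IRX3_WT than in GFP (0.41, adjusted p = 0.0172; 0.147 without GFP replicate 2). Kcnj2, the inward rectifier Kir2.1, was lower in IRX3_WT than in GFP (-0.24, adjusted p = 0.0114; 0.0511 without GFP replicate 1 and 0.0636 without GFP replicate 3). The noncoding Kcnq1ot1 was lower than in GFP in IRX3_WT (-0.53, adjusted p = 0.0393) and in IRX3_S389A (-0.60, adjusted p = 0.0233), each held in 8 of 12 fits without 1 library, with adjusted p of up to 0.226 and 0.165, both without GFP replicate 1.

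**Figure D3:**
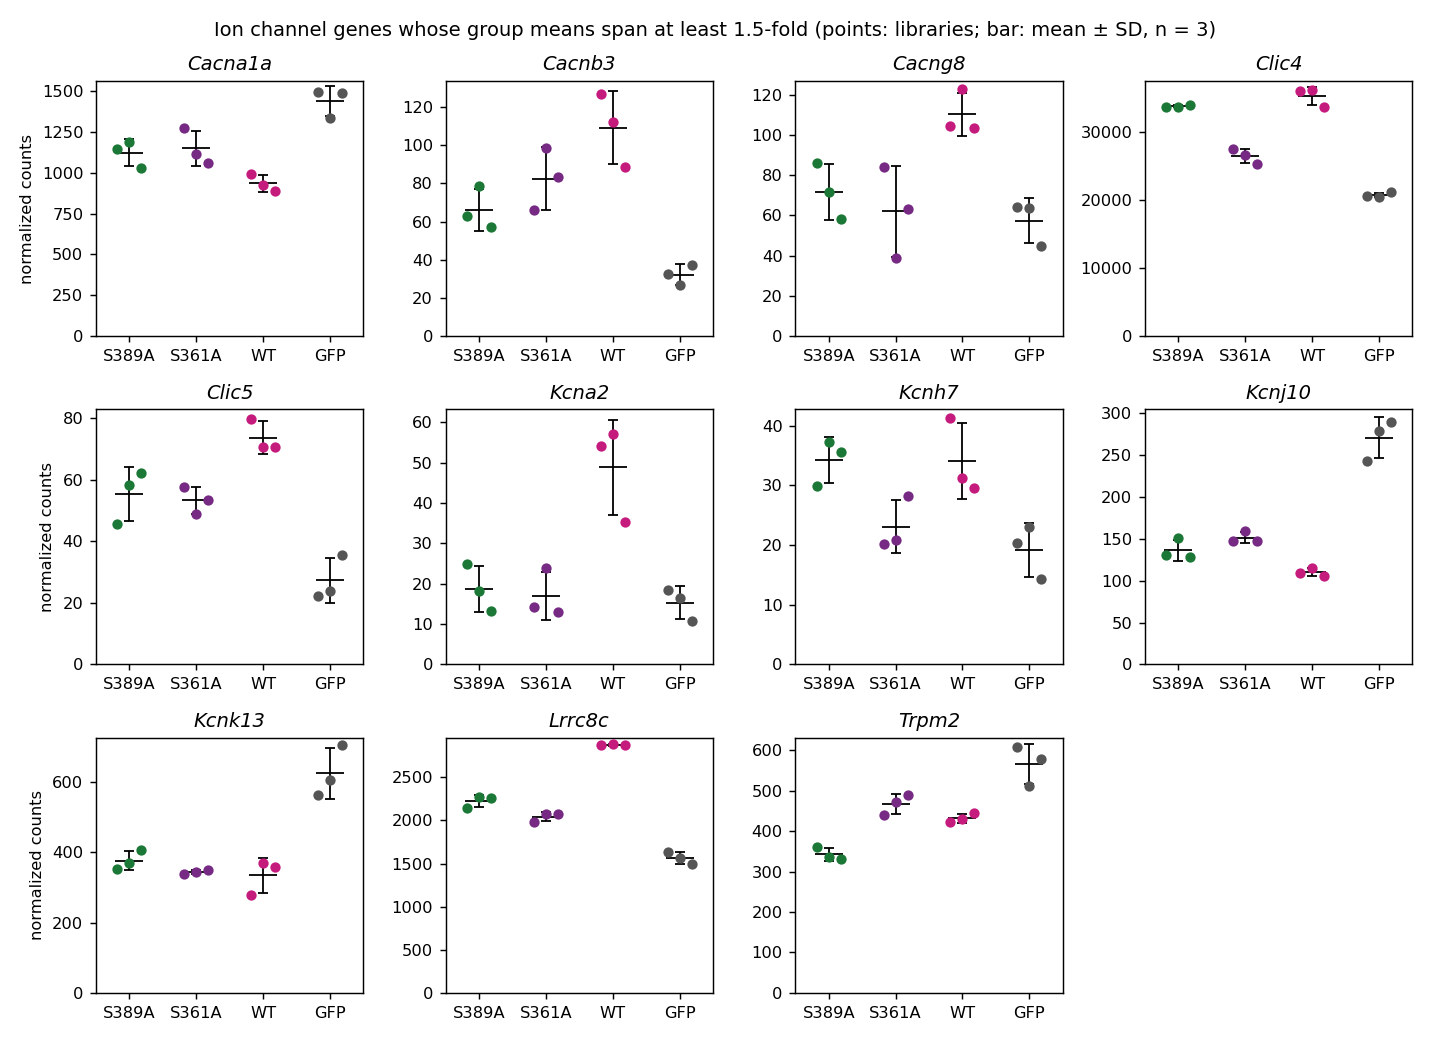
Normalized counts in each library (points) with the mean ± SD (bars, n = 3) for the 11 ion channel genes called over the 4 groups with group means at least 1.5-fold apart, each on its own axis from 0. The IRX3_WT libraries lie above all others at Kcna2, Lrrc8c, Cacng8 and Clic5. Kcnj10, Kcnk13, Cacna1a and Trpm2 are highest in the GFP libraries.

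Of 8 voltage-gated calcium channel genes tested, 2 were higher (21.0% of all genes) and 1 lower (18.6%) in IRX3_WT than in GFP. The lower one, Cacna1a, encodes the pore of the P/Q-type channel Cav2.1. Cacna1a had 1148, 1189 and 1030.5 normalized counts in the IRX3_S389A libraries and 1271, 1114 and 1061 in the IRX3_S361A libraries. It had 992, 927 and 889.8 in the IRX3_WT libraries, against 1496, 1335 and 1487 in the GFP libraries. The GFP libraries lay above all others, the IRX3_WT libraries below all others, and the substituted constructs in between. Cacna1a (chr8:84388440-84640246, plus strand) was lower in IRX3_WT than in GFP (log2 difference -0.62, SE 0.07, limma adjusted p = 1.23e-09). It was higher than in IRX3_WT in IRX3_S361A (log2 difference 0.29, SE 0.07, limma adjusted p = 0.00146) and in IRX3_S389A (log2 difference 0.26, SE 0.07, limma adjusted p = 0.00503). Cacna1d, the pore of Cav1.3, was called in IRX3_S389A against IRX3_WT (0.28, adjusted p = 0.029; held in 8 of 12 fits without 1 library, up to 0.146 without IRX3_S389A replicate 2).

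The 2 higher ones were the accessory subunit genes Cacnb3 and Cacng8, while the beta subunit genes Cacnb1 and Cacnb2 were not called in IRX3_WT against GFP. Cacnb3 encodes the cytosolic beta 3 subunit, which brings the pore to the membrane. Cacnb3 had 63.02, 78.5 and 56.9 normalized counts in the IRX3_S389A libraries and 65.8, 98.4 and 83.4 in the IRX3_S361A libraries. It had 127, 112 and 88.8 in the IRX3_WT libraries, against 32.5, 26.7 and 37.4 in the GFP libraries. All 9 IRX3 libraries exceeded the GFP libraries. Cacnb3 (chr15:98630840-98644529, plus strand) was higher than in GFP in IRX3_WT (log2 difference 1.73, SE 0.20, limma adjusted p = 2.42e-09), in IRX3_S361A (1.33, adjusted p = 1.26e-06) and in IRX3_S389A (1.02, adjusted p = 6.5e-05, log2 differences, limma). It was lower in IRX3_S389A than in IRX3_WT (log2 difference -0.71, SE 0.20, limma adjusted p = 0.00984), a call that ended without IRX3_S389A replicate 3 (0.0535) or IRX3_WT replicate 1 (0.0763). In IRX3_S361A against IRX3_WT the difference was -0.40, adjusted p = 0.178. Cacnb2 was called only in IRX3_S389A against GFP (0.78, adjusted p = 0.0428; up to 0.253, without GFP replicate 2).

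Cacng8 belongs to the gamma subunits and is best known as an auxiliary protein of AMPA-type glutamate receptors. Cacng8 had 85.7, 71.5 and 57.9 normalized counts in the IRX3_S389A libraries and 84.01, 38.8 and 63.3 in the IRX3_S361A libraries. It had 104, 123 and 104 in the IRX3_WT libraries, against 64.04, 63.5 and 44.5 in the GFP libraries. The IRX3_WT libraries lay above all others, and the libraries of the other constructs overlapped. Cacng8 (chr7:3390683-3415648, plus strand) was higher in IRX3_WT than in GFP (log2 difference 0.94, SE 0.22, limma adjusted p = 0.000597). It was lower than in IRX3_WT in IRX3_S361A (log2 difference -0.88, SE 0.22, limma adjusted p = 0.00372; 0.0557 without IRX3_S361A replicate 2). In IRX3_S389A against IRX3_WT (log2 difference -0.63, SE 0.22, limma adjusted p = 0.0449) the call held in 4 of 12 fits without 1 library, with an adjusted p of up to 0.186 without IRX3_S389A replicate 3.

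ORAI proteins form the pore that opens when calcium stores are empty. Orai2, the most abundant of the 3 per kilobase, averaged 4711 ± 194 normalized counts in IRX3_S389A, 5181 ± 53.9 in IRX3_S361A and 5655 ± 303 in IRX3_WT macrophages, against 3979 ± 86.5 in GFP macrophages. It was higher in IRX3_WT than in GFP (log2 difference 0.51, SE 0.04, limma adjusted p = 3.9e-13) and lower in IRX3_S389A than in IRX3_WT (log2 difference -0.26, SE 0.04, limma adjusted p = 8.9e-06). The lower level in IRX3_S361A than in IRX3_WT (-0.12, adjusted p = 0.0299) held in 7 of 12 fits without 1 library, up to 0.213 without IRX3_WT replicate 3. Orai1 averaged 425 ± 80.5 in IRX3_S389A, 571 ± 27.1 in IRX3_S361A and 483 ± 69.7 in IRX3_WT macrophages, against 528 ± 15.9 in GFP macrophages. It was lower in IRX3_S389A than in IRX3_S361A (-0.44, adjusted p = 0.027; held in 7 of 12 fits without 1 library, up to 0.102 without IRX3_S361A replicate 1) and than in GFP (-0.33, adjusted p = 0.0427; held in 4 of 12, up to 0.177 without IRX3_S389A replicate 3). Orai3, at 319 ± 26.1 in IRX3_S389A, 359 ± 32.1 in IRX3_S361A and 349 ± 4.46 in IRX3_WT macrophages, against 362 ± 8.08 in GFP macrophages, was not called (F test adjusted p = 0.239).

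Trpm2 was the TRP gene that varied most. Its product is a calcium-permeable channel opened by ADP-ribose, known in phagocytes from oxidative stress. Trpm2 had 360.5, 336 and 330.3 normalized counts in the IRX3_S389A libraries and 440.3, 472 and 489.5 in the IRX3_S361A libraries. It had 422, 429.9 and 444 in the IRX3_WT libraries, against 609, 511 and 578 in the GFP libraries. The GFP libraries lay above all others, the IRX3_S389A libraries below all others, and the IRX3_S361A and IRX3_WT libraries overlapped. Trpm2 (chr10:77907722-77970563, minus strand) was lower in IRX3_WT than in GFP (log2 difference -0.39, SE 0.08, limma adjusted p = 0.000123). It was lower in IRX3_S389A than in IRX3_WT (log2 difference -0.34, SE 0.08, limma adjusted p = 0.00233) and than in IRX3_S361A (log2 difference -0.45, SE 0.08, limma adjusted p = 9.34e-05), while in IRX3_S361A against IRX3_WT the difference was 0.11, adjusted p = 0.393 (95% interval -0.05 to 0.27). The lower level in IRX3_S361A than in GFP (-0.27, adjusted p = 0.0078) ended without IRX3_S361A replicate 1 (0.0512) or GFP replicate 1 (0.0754).

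The other TRP genes and Piezo1 moved by less. Trpm7, a channel fused to a kinase, averaged 2707 ± 118 in IRX3_WT and 2387 ± 33.6 in GFP macrophages (0.18, adjusted p = 0.00123). Trpm4, a calcium-activated channel for monovalent cations, was higher in IRX3_WT than in GFP (0.28, adjusted p = 0.00345), and so was Trpc4ap (0.18, adjusted p = 0.000414). Piezo1 averaged 10630.1 ± 581 in IRX3_S389A, 10964 ± 280.2 in IRX3_S361A and 11773 ± 432 in IRX3_WT macrophages, against 10315 ± 216 in GFP macrophages, with a difference of 0.19, adjusted p = 7.1e-05 in IRX3_WT against GFP. With equal library totals the differences of these 4 genes were 0.00 for Trpm7, 0.10 for Trpm4, 0.00 for Trpc4ap and 0.01 for Piezo1 and none was called. Piezo1 was lower in IRX3_S389A than in IRX3_WT (-0.15, adjusted p = 0.00478; 0.0635 without IRX3_S389A replicate 3). Trpv4 was called by the F test (adjusted p = 0.0397) and in no comparison of 2 groups, and Trpv2, at 2576 ± 11.6 in IRX3_S389A, 2569 ± 126 in IRX3_S361A and 2474 ± 152 in IRX3_WT macrophages, against 2492 ± 6.99 in GFP macrophages, was called nowhere, with an interval of -0.11 to 0.08 for IRX3_WT against GFP.

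**Figure D4:**
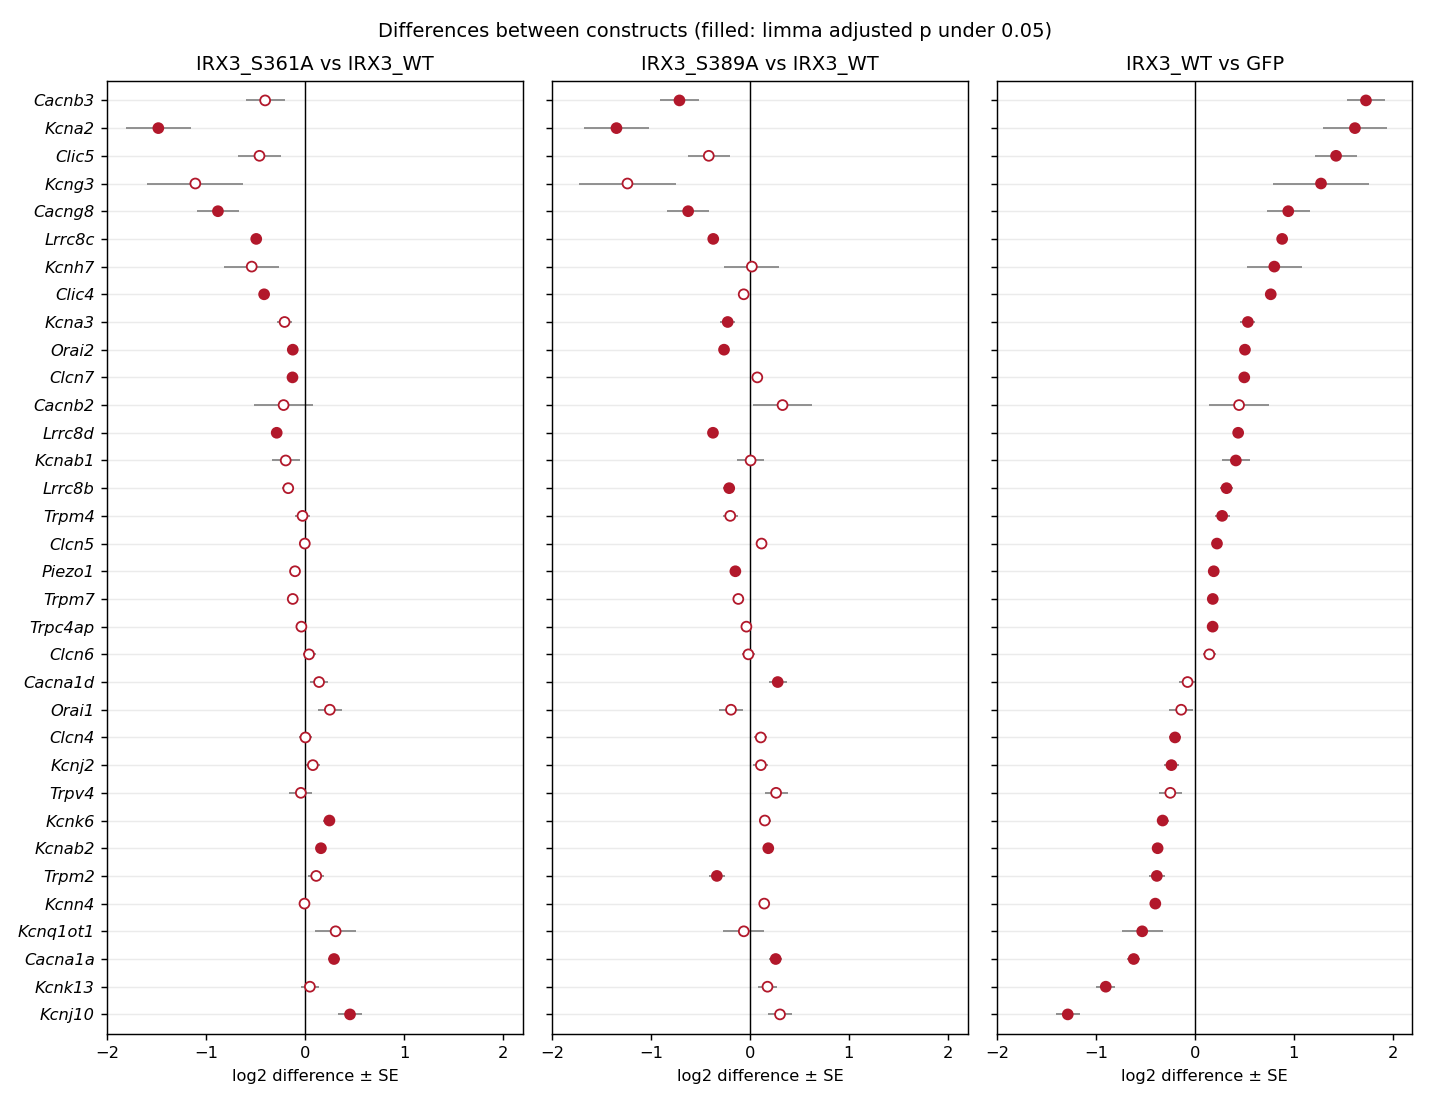
Log2 differences ± SE (limma) of the 34 ion channel genes called by the F test or in any comparison, in IRX3_S361A vs IRX3_WT, IRX3_S389A vs IRX3_WT and IRX3_WT vs GFP, sorted by the last. Filled points passed an adjusted p of 0.05, among them Cacnb3 at 1.73 and Kcnj10 at -1.29 in IRX3_WT vs GFP and Kcna2 at -1.48 and -1.35 with the substituted constructs.

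No sodium channel gene was called. Of 14 such genes, 2 passed the filter, and the accessory subunit gene Scn3b averaged 11.03 ± 7.31 normalized counts in IRX3_WT and 11.6 ± 3.43 in GFP macrophages. Among the genes called nowhere were Scn3b, Cacna1b, Cacna1f, Cacnb1, Clcn2, Clcn3, Clic1, Kcnh4, Kcnip4, Kcnj9, Kcnk7, Kcnk12, Kcnrg, Lrrc8a, Orai3 and Trpv2. Of the 19 called nowhere, 11 averaged under 30 normalized counts, where counting noise limits which differences can be detected.

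Genes that work with these channels were read from 5 lists, as counts only. In IRX3_WT against GFP, 21.0% of all genes tested were called higher and 18.6% lower, with a median log2 difference of -0.01. Of 22 genes tested for calcium stores, pumps and uptake, 4 were higher and 2 lower (median -0.04). Stim2, a calcium sensor of the endoplasmic reticulum that opens ORAI channels, averaged 2022 ± 40.6 in IRX3_S389A, 1857 ± 50.4 in IRX3_S361A and 2201 ± 65.1 in IRX3_WT macrophages, against 1475 ± 33.3 in GFP macrophages (0.58, adjusted p = 2.59e-13 in IRX3_WT against GFP). Atp2b4, a plasma membrane calcium pump, was higher in IRX3_WT than in GFP (0.68, adjusted p = 3.9e-11) and lower than in IRX3_WT in IRX3_S361A (-0.50, adjusted p = 3.94e-07) and IRX3_S389A (-0.43, adjusted p = 6.36e-06). Itpr3, a calcium release channel of the endoplasmic reticulum, was lower in IRX3_WT than in GFP (-0.58, adjusted p = 5.68e-11), and Atp2b1, another pump, was higher (0.24, adjusted p = 3.27e-06). Of 19 genes for calcineurin, NFAT and calmodulin kinases, 5 were higher and 8 lower (median 0.02). Nfatc2, a transcription factor that calcineurin activates, had 80.7, 63.3 and 87.6 normalized counts in the IRX3_WT libraries, against 359, 349 and 419 in the GFP libraries (log2 difference -2.28, SE 0.15, limma adjusted p = 2.25e-15). It was higher in IRX3_S361A than in IRX3_WT (0.61, adjusted p = 0.00373). Among the calmodulin kinase genes, Camk1 was lower in IRX3_WT than in GFP (-0.44, adjusted p = 1.45e-09), while Camk2d (0.32, adjusted p = 2.13e-07) and Camkk2 (0.32, adjusted p = 2.05e-08) were higher.

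Of 28 other ion channel genes tested, 8 were higher (21.0% of all genes) and 7 lower (18.6%) in IRX3_WT than in GFP (median 0.01). In IRX3_S389A against IRX3_WT 8 of these were higher (8.21% of all genes) and 1 lower (7.08%), and in IRX3_S361A against IRX3_WT 6 were higher (6.43%) and 2 lower (9.07%). P2rx7, the ATP-gated channel whose opening leads to potassium loss and inflammasome assembly, averaged 453 ± 8.52 in IRX3_S389A, 362 ± 27.8 in IRX3_S361A and 334 ± 9.42 in IRX3_WT macrophages, against 564 ± 28.96 in GFP macrophages (-0.75, adjusted p = 3.01e-10 in IRX3_WT against GFP and 0.44, adjusted p = 8.75e-05 in IRX3_S389A against IRX3_WT). Tpcn2, an endolysosomal cation channel, was lower in IRX3_WT than in GFP (-0.81, adjusted p = 9.58e-13), and Mcoln2, another of these compartments, was higher (0.74, adjusted p = 1.79e-15). Hvcn1, the proton channel of phagocytes, was higher (0.70, adjusted p = 1.28e-13), though 44.2% of its exon bases are shared with another gene. Of 14 genes for the sodium pump and cation-chloride transport, 5 were higher (21.0% of all genes) and 1 lower (18.6%) in IRX3_WT than in GFP (median 0.05), the higher ones including the potassium-chloride cotransporter gene Slc12a4 (0.31, adjusted p = 1.87e-07) and the pump subunit gene Atp1b3 (0.18, adjusted p = 0.000117). Of 16 channel regulators, 7 were higher (21.0% of all genes) and none (0) lower (18.6%; median 0.15), among them Kctd12 (0.35, adjusted p = 2.74e-11; 64.2% of exon bases shared), Pik3cg (0.35, adjusted p = 9.57e-10), Stac2 (0.30, adjusted p = 0.00331) and Sgk1 (0.18, adjusted p = 0.00329). These are limma log2 differences with adjusted p over all genes tested. The differences and counts of all 5 lists were not scaled to equal library totals. With equal totals the median of all genes in IRX3_WT against GFP was -0.18. Differences near that size, such as those of Sgk1 and Atp1b3, may therefore not be called under that scaling. How far the splits into higher and lower depend on it is not reported here.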

How the data were processed

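Total RNA of 12 BMDM libraries was sequenced. The submitters' processing notes name the mm10 build, HISAT2 2.1.0, StringTie 1.3.5 and Trimmomatic, without a version. Sources used here do not give the counter, its strand setting or the annotation release. The deposited signal is a normalized count: all values (100%) in each column were whole multiples of 1 step (tolerance 1e-06), worth 0.890 to 1.14 units per read, which gave 17149058 to 20108002 reads per library. In 3 columns the step lay within 1% of 1, and 1 alternative fit left these out and used the other 9 libraries. IDs were matched to GENCODE M21 (98.1% with the same version).

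Genes that reached 10 normalized counts in 3 or more libraries entered limma 3.58.1 (R 4.3.3) on log2(value + 1), trend and robust settings, 1 mean per group over 12 libraries, 8 residual degrees of freedom, and Benjamini-Hochberg adjustment over 13369 genes. The pseudocount makes differences of low genes smaller than the count ratio. The fit was also run on simulated counts, drawn with 1 setting of the spread for all genes. Only genes averaging at least 30 normalized counts were changed there, by at least 1.5-fold. That run therefore does not cover smaller differences or weaker genes. Alternatives included edgeR 4.0.16 and DESeq2 1.42.0 on recovered reads. Ion channel genes called by the F test with group means at least 1.5-fold apart are given in every library, the other called ones by means or differences, and up to 4 genes per list by smallest F test p. Some genes that these rules select are not reported here. The ion channel genes and lists were chosen with earlier results of these data known. Counting error only is covered by the floor of 3 reads, 2.67 to 3.41 units.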

Additional observations from a re-analysis of the deposited data

How the results depend on the processing

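Called differences of the 53 ion channel genes numbered 98 over the 6 comparisons. Of these, 68 were called in each of the 12 fits that left out a library, and 50 were called in those and in each other alternative that tested them. The fit on genes averaging at least 30 normalized counts held only 91 of the 98, without those of Kcna2, Kcnh7, Cacnb2 and Kcng3. None was lost with pseudocounts of 0.5 or 4, with TMM scaling or with edgeR on the recovered reads of 12 libraries. With DESeq2 3 were lost, with no filter on low values 6, with equal library totals 21, without limma's trend and robust settings 21, and with edgeR on 9 libraries 19. That fit holds 2 IRX3_S389A libraries and 1 IRX3_S361A library, which is assumed to vary like the other groups. The last fit and the removal of a GC trend (2 lost) were chosen after seeing the data. Direction reversed once: Trpc4ap in IRX3_S389A against GFP was -0.027 with equal library totals (adjusted p = 0.596).

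Without trend and robust settings the counts were 6 for IRX3_S361A against IRX3_WT, 7 for IRX3_S389A against IRX3_WT and 3 for IRX3_S389A against IRX3_S361A. EdgeR on 9 libraries, with the lone IRX3_S361A library, gave 6 for IRX3_S361A against IRX3_WT and 1 for IRX3_S389A against IRX3_S361A, and equal library totals gave 8 for IRX3_S389A against IRX3_S361A. The causes were not tested. Leaving out 1 library gave 25 to 29 calls for IRX3_WT against GFP, 8 to 14 for IRX3_S361A against IRX3_WT, 8 to 14 for IRX3_S389A against IRX3_WT, 15 to 20 for IRX3_S361A against GFP, 17 to 21 for IRX3_S389A against GFP, 3 to 6 for IRX3_S389A against IRX3_S361A and 25 to 29 for the F test.

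Same-numbered libraries did not deviate together (18 pairs, r from -0.0410 to 0.0297; 4 of 12 libraries correlated best with their own number), so the numbers are not read as pairing. With the replicate number as a block the counts were 29, 11, 13, 19, 20, 5 and 28 in the order IRX3_WT against GFP, IRX3_S361A and IRX3_S389A against IRX3_WT, IRX3_S361A and IRX3_S389A against GFP, IRX3_S389A against IRX3_S361A and the F test. The call that ended under the block was Orai1 in IRX3_S389A against GFP (adjusted p = 0.0612). The overall F test could not be fitted with only the 2 groups compared. Depth limits the genes averaging under 30 normalized counts, 15 of the 53.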
